A study of Mus musculus with 8 samples.

Results

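Macrophages such as microglia use a small set of genes to make itaconate, nitric oxide and superoxide and to remove reactive oxygen, and 10 of these were followed among the 55471 rows of the deposited table. They were chosen by symbol: Acod1 and Nos2 for itaconate and nitric oxide, Cybb for superoxide production, Sod1 and Sod2 for superoxide removal, and Nfe2l2, Hmox1, Gclm, Txnrd1 and Prdx1 for the NRF2 response. All 10 were present in the table, each on 1 row. The RNA was that of sorted microglia, which are resident brain macrophages, and C57/Bl6 mice aged 30 postnatal days gave the hippocampi. The IL-33 group had been injected 4 hours earlier with interleukin-33, a cytokine of the interleukin-1 family, and the PBS group with phosphate-buffered saline at the same interval. Each group had 4 libraries, from 2 females and 2 males: IL-33 replicates 1 and 2 and PBS replicates 5 and 6 were female, and IL-33 replicates 3 and 4 and PBS replicates 7 and 8 were male. The labels name no allele, transgene, dose or route of injection, and leave unsaid whether any animals were pooled or sampled more than once. The p-values therefore rest on the spread among libraries, and some of that spread may be technical. Values of single libraries are listed in replicate order, females before males in each group.

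In macrophages the mitochondrial enzyme encoded by Acod1 makes itaconate from the citrate cycle intermediate cis-aconitate, and itaconate inhibits succinate dehydrogenase. Nos2 encodes the inducible nitric oxide synthase, which uses arginine, and Cybb the catalytic subunit of the phagocyte NADPH oxidase, which turns oxygen into superoxide. NRF2, the product of Nfe2l2, is a transcription factor that the adaptor KEAP1 marks for degradation. Oxidants and itaconate can modify KEAP1, and NRF2 then activates genes of glutathione, thioredoxin and haem metabolism through antioxidant response elements.

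Between 16827343 and 21483352 reads per library were counted on genes, and 7958 to 11902 genes had at least 10 reads in a library, with the fewest in IL-33 replicates 3 and 4. All 12 microglial markers examined had reads, and together they took 2.59% to 4.43% of reads after IL-33 and 3.84% to 5.51% after PBS. Cx3cr1 and Csf1r were the most abundant of them, and 5 of the 12 were called lower and 0 higher by the test described below. Because neutrophils and monocytes also carry Acod1 and Cybb, their markers were examined too. Of 12 neutrophil markers 10 had no read in any library, including S100a8, S100a9 and Ly6g, and the other two (Csf3r and Cxcr2) summed to 1.91 to 643 normalised counts after IL-33 and 407 to 1296 after PBS. The 12 markers of monocytes and border macrophages, led by Ms4a4c and Vcan and with Chil3 at 0, summed to 447 to 1102 after IL-33 and 162 to 600 after PBS, so that the ranges overlapped. Lymphocyte markers, Cd79b among them and with 5 of 10 at 0, summed to 1809 to 5517 after IL-33 and 268 to 846 after PBS, without overlap, and 1 of them, Cd79b, was called higher. Astrocyte markers, led by Slc1a3 and Slc1a2, with 3 of 10 at 0, summed to 5567 to 8862 after IL-33 and 3080 to 5588 after PBS. Neuronal markers, led by Syt1 and Nrgn, with 9 of 10 in the table and 0 without reads, summed to 956 to 2437 after IL-33 and 511 to 1053 after PBS. For oligodendrocyte lineage markers, Mbp among them and with 1 of 10 at 0, the sums were 3115 to 5976 after IL-33 and 3283 to 5032 after PBS. Endothelial and mural markers, led by Pecam1 and Cdh5, with 2 of 10 at 0, summed to 161 to 594 after IL-33 and 108 to 701 after PBS. The part of these other cell types in the results below was not tested.

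Within 4 hours of IL-33, genes for itaconate synthesis and superoxide production were high in all 4 libraries and nearly silent in the PBS libraries, mitochondrial superoxide dismutase and thioredoxin reductase rose several-fold, and the NRF2 gene rose to a smaller extent. Nos2 had no reads at all, and Hmox1, Gclm, Prdx1 and Sod1 did not pass the test. Expression is given as normalised read counts, which are reads divided by 1 factor per library, and the test was limma on log2(value + 1). A gene was tested where its mean over the 8 libraries was at least 10, and called where its p, adjusted over all tested genes by Benjamini and Hochberg's method, was under 0.05. A value given in parentheses before its SE or adjusted p is a log2 fold change. Of the 10 genes 9 were tested, 5 rose and 0 fell. Among all 13877 tested genes 5.85% were called in either direction, 3.06% higher and 2.8% lower. edgeR called 5 of the 9, against 5.46% of all tested genes, and DESeq2 called 6, against 12% of all. Acod1 reached the minimum mean only through its IL-33 libraries, so that the count of 9 is not a sample of genes free to move either way. The median log2 fold change was 1.26 over the 9 genes and -0.40 over all tested genes. In a bulk library a larger share of cells with a transcript and more of it per cell cannot be told apart.

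**Figure D1:**
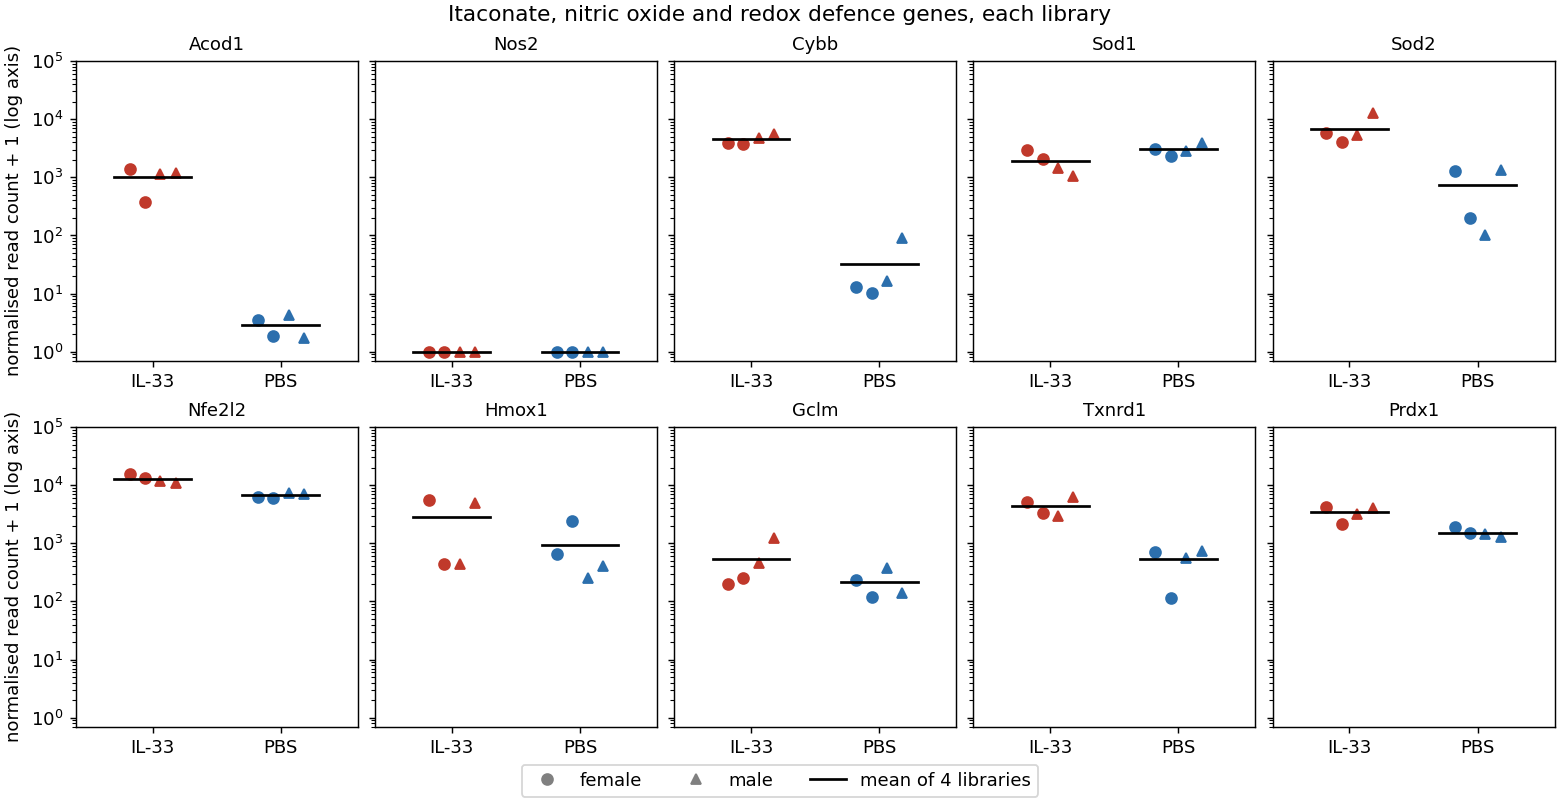
Normalised read counts plus 1 on a log axis for the 10 genes in each library (circles, female; triangles, male), with the 4 IL-33 libraries left of the 4 PBS libraries and a black line at each group mean. Acod1, Cybb, Sod2, Nfe2l2, Txnrd1 and Prdx1 had no overlap between groups, Nos2 lay at 0 reads in every library, and Hmox1, Gclm and Sod1 overlapped. Of all tested genes 6.26% had no overlap with IL-33 higher.

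Acod1 (chromosome 14, 103046977 to 103056573, GRCm38) was at 1399, 378, 1136 and 1199 normalised counts after IL-33 and at 2.54, 0.852, 3.29 and 0.733 after PBS. Its PBS values stood for 3, 1, 4 and 1 reads. IL-33 replicate 2 was the lowest of its group and still lay far above every PBS library. The group means were 1028 ± 447 after IL-33 and 1.85 ± 1.26 after PBS (SD, n = 4 each), and the log2 fold change was 8.45 ± 1.71 SE (limma adjusted p = 0.00435). Summed over libraries, 4199 reads after IL-33 stood against 9 after PBS, a rate 494 times as high with an exact 95% interval of 260 to 1080.1 that covers counting error only. Fitted to the recovered reads with edgeR, the log2 fold change was 9.04 (adjusted p = 1.85e-05). Each of the 8 fits that omitted a single library kept the call, which was lost without both IL-33 replicates 3 and 4 (8.11, adjusted p = 0.0694).

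The 3 genes whose pattern over the 8 libraries lay nearest to Acod1 were Fas, Il1b and Tnf, among 9373 other genes with a mean of at least 100. Nearness was the mean absolute difference of log2(value + 1) after centring each gene on its own mean, and it came to 0.46 for Fas, 0.47 for Il1b and 0.47 for Tnf. Fas, a death receptor, averaged 2312 normalised counts after IL-33 and 4.48 after PBS. The corresponding averages for the cytokine gene Il1b were 93365 and 190, and for Tnf 15722 and 56.7.

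Of 25 other tested genes of itaconate and the citrate cycle, 2 rose and 0 fell, with a median log2 fold change of 0.28. By the same test 3.06% of all tested genes were called higher and 2.8% lower. Slc25a10, the mitochondrial dicarboxylate carrier, was at 3175, 2228, 2793 and 1203 after IL-33 and at 4.23, 393.6, 22.2 and 7.32 after PBS (log2 fold change 6.46 ± 1.22 SE, limma adjusted p = 0.00224). PBS replicate 6 stood above the other PBS libraries, and without it the call held (7.78), while edgeR gave a log2 fold change of 4.49. Slc13a3, a plasma membrane dicarboxylate transporter, was at 1492, 1532, 1331 and 3660.1 after IL-33 and at 61.0, 114, 419 and 401 after PBS (3.29 ± 0.74 SE, adjusted p = 0.0103). Of the genes for succinate dehydrogenase, the enzyme that itaconate inhibits, 3 were tested and none was called. Sdha averaged 3029 ± 809 after IL-33 and 2847 ± 1154 after PBS (SD, n = 4 each; limma adjusted p = 0.855), and Sdhb and Sdhc had adjusted p of 0.823 and 0.731. These were singled out after their values were seen. Without both IL-33 replicates 3 and 4 the call of Slc13a3 was lost (adjusted p = 0.0690) and that of Slc25a10 held. Slc13a3 was not called without a variance trend either (adjusted p = 0.0840).

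Nos2 (chromosome 11, 78920787 to 78960254) had 0 reads in each of the 8 libraries. A count of 0 allows up to 3 reads per library, which at these depths is 2.20 to 3.12 normalised counts, for counting error alone. No annotated gene overlapped it. No fold change or test could be given. Among 19 other genes of nitric oxide, arginine and tetrahydrobiopterin metabolism 13 were tested, and limma called 0 of them. At an unadjusted p under 0.05 there were 2, a threshold passed by 19.4% of all tested genes. Of the 13, edgeR called 0, against 5.46% of all tested genes, and DESeq2 called 1, against 12%. The median log2 fold change of those 13 was -0.33. The endothelial synthase gene Nos3 had no reads either, nor did Ass1, which makes arginine from citrulline together with Asl (both chosen after their values were seen). Slc7a1, a transporter of arginine and other cationic amino acids, was at 1412, 3248, 1335 and 1694 after IL-33 and at 874, 307, 455 and 781.5 after PBS. These groups did not overlap, with IL-33 higher, as was so for 6.26% of all tested genes. The gene missed the threshold (1.69 ± 0.55 SE, limma adjusted p = 0.0798). Qdpr, which regenerates tetrahydrobiopterin, averaged 1120.2 ± 986 after IL-33 and 1199.6 ± 485 after PBS (SD, n = 4 each; adjusted p = 0.646).

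Cybb (chromosome X, 9435252 to 9487771) was at 3834, 3794, 4766 and 5522 normalised counts after IL-33 and at 11.9, 9.37, 15.6 and 89.4 after PBS. PBS replicate 8 was well above the other PBS libraries and far below every IL-33 library. The means were 4479 ± 828 after IL-33 and 31.6 ± 38.6 after PBS (SD, n = 4 each). The log2 fold change was 7.71 ± 0.91 SE (limma adjusted p = 1.18e-05), and the call held under all 20 alternatives, with log2 fold changes from 7.13 to 8.93. Summed over the 4 libraries of a group there were 18785 Cybb reads after IL-33 and 166 after PBS.

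Several partners of the Cybb protein rose too. Of 8 tested genes of the oxidase complex besides Cybb, 4 rose and 0 fell, and the median log2 fold change of the 8 was 0.73. Over all tested genes 3.06% were called higher and 2.8% lower. Rac2, a haematopoietic GTPase that activates the oxidase, was at 9641, 11101, 10359.9 and 8589 after IL-33 and at 1855, 3210.4, 2274 and 2033 after PBS (2.11 ± 0.29 SE, limma adjusted p = 8.29e-05). Ncf4, a cytosolic regulatory subunit, was at 4563, 2765, 1243 and 2487 after IL-33 and at 156, 813, 658 and 416 after PBS (2.53 ± 0.60 SE, adjusted p = 0.0150). Hvcn1, the voltage-gated proton channel that balances the charge moved by the oxidase, was at 2805, 4147, 2624 and 4361 after IL-33 and at 691, 1395, 1527 and 1179 after PBS (1.56 ± 0.41 SE, adjusted p = 0.0285). The fourth, the organiser subunit gene Ncf1, named after its values were seen, averaged 19549 ± 7336 after IL-33 and 8516 ± 838 after PBS (SD, n = 4 each), with a log2 fold change of 1.14 ± 0.24 SE and a limma adjusted p of 0.00633.

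Of the 8 tested genes of the complex, 4 had all IL-33 libraries above all PBS libraries, against 6.26% of all tested genes. They were the same 4 that were called, so that this is not separate from the calls. Rac1, the ubiquitous relative of Rac2, averaged 1332 ± 642 after IL-33 and 1431 ± 397 after PBS (SD, n = 4 each; limma adjusted p = 0.871). Cybc1, a chaperone of the Cybb protein, averaged 1986 ± 547 after IL-33 and 1929.6 ± 397 after PBS (adjusted p = 0.983). Rac1 and Cybc1 were singled out after their values were seen. Cyba, the partner subunit in the membrane, was not analysed here. The call of Hvcn1 was lost without IL-33 replicate 2 or PBS replicate 5, 6 or 8 (adjusted p = 0.0881, 0.0920, 0.0538 and 0.0662), and that of Ncf4 without IL-33 replicate 1 (0.0662). Without both IL-33 replicates 3 and 4 Hvcn1 was not called (0.0543), and without a variance trend in limma none of the 4 was (adjusted p = 0.0604 for Rac2, 0.132 for Ncf4, 0.182 for Hvcn1 and 0.302 for Ncf1).

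**Figure D2:**
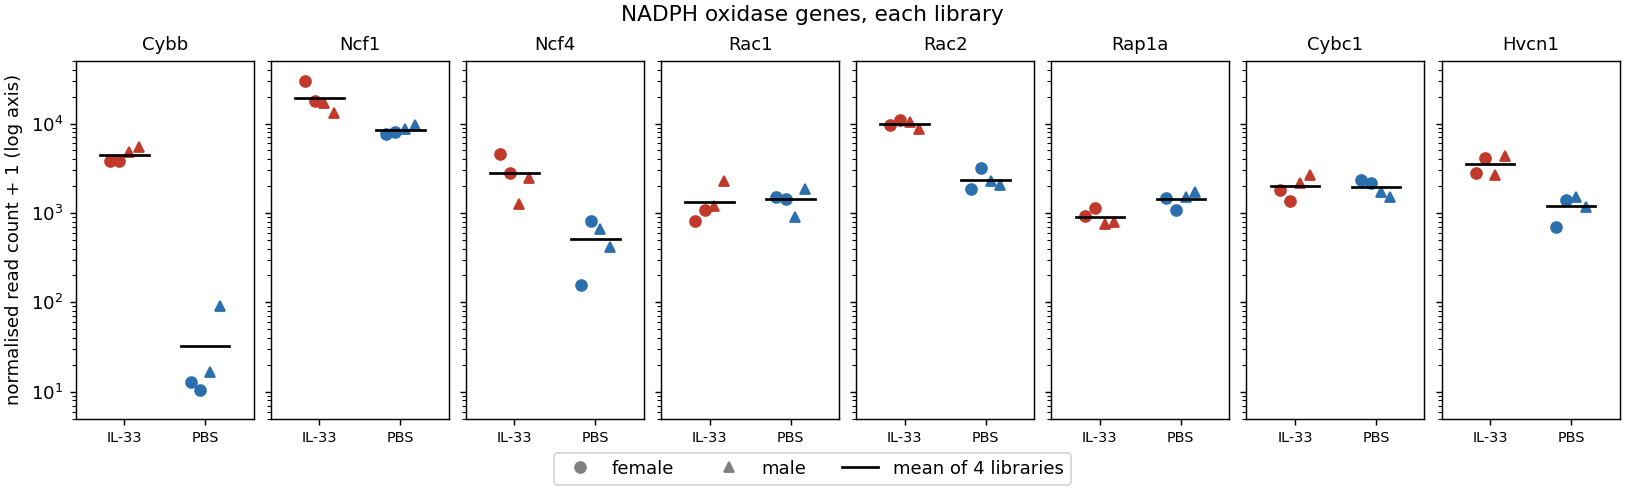
Normalised read counts plus 1 on a log axis for Cybb and 7 other NADPH oxidase genes in each library (circles, female; triangles, male), IL-33 left of PBS, with black lines at the group means of 4 libraries. Cybb, Ncf1, Ncf4, Rac2 and Hvcn1 were higher in every IL-33 library than in any PBS library, while the groups of Rac1, Rap1a and Cybc1 overlapped.

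Of the superoxide dismutase genes, Sod2 rose and Sod1 was not called. Sod2 (chromosome 17, 13006846 to 13040063), which encodes the manganese enzyme of mitochondria, was at 5760.4, 4003, 5346 and 12558 normalised counts after IL-33 and at 1297, 196, 100.2 and 1319 after PBS. IL-33 replicate 4 was the highest and the PBS libraries fell into 2 high and 2 low ones, 1 of each sex in each pair. The log2 fold change was 3.87 ± 0.69 SE (limma adjusted p = 0.00148), with means of 6917 ± 3835 after IL-33 and 728 ± 671 after PBS (SD, n = 4 each). In edgeR it was 3.24 (adjusted p = 0.00172), and without a variance trend limma did not call Sod2 (adjusted p = 0.0985). Sod1 (chromosome 16, 90220754 to 90226329), the copper and zinc enzyme of the cytosol, was at 2960.2, 2104, 1426 and 1074 after IL-33 and at 3043, 2328, 2813 and 3927 after PBS. IL-33 replicate 1 lay within the PBS range and the other IL-33 libraries were below every PBS library. The log2 fold change of Sod1 was -0.76 ± 0.40 SE (limma adjusted p = 0.320).

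Sod1 and Scaf4, a gene on the opposite strand, share 650 bases that include the annotated 3′ end of Sod1. The libraries read 3′ ends, and whether counting used the strand is not given in the sources used here, so that the Sod1 and Scaf4 counts are uncertain. Scaf4 averaged 1465 ± 816 after IL-33 and 636 ± 320 after PBS (SD, n = 4 each; limma adjusted p = 0.329). No annotated gene overlapped Sod2.

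Within a library, the ratio of the genes does not depend on the scaling factor. Sod2 over Sod1 was 1.95, 1.90, 3.75 and 11.7 after IL-33 and 0.426, 0.0842, 0.0356 and 0.336 after PBS. Every IL-33 library thus had more Sod2 than Sod1 reads and every PBS library fewer. On the log2 scale the mean ratio was 1.84 ± 1.23 after IL-33 and -2.79 ± 1.69 after PBS (SD, n = 4 each), a difference of 4.63 (exact permutation p = 0.0286, two-sided, the smallest possible with 4 against 4). The ratio counts 3′ end reads and carries the uncertainty of the Sod1 counts.

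**Figure D3:**
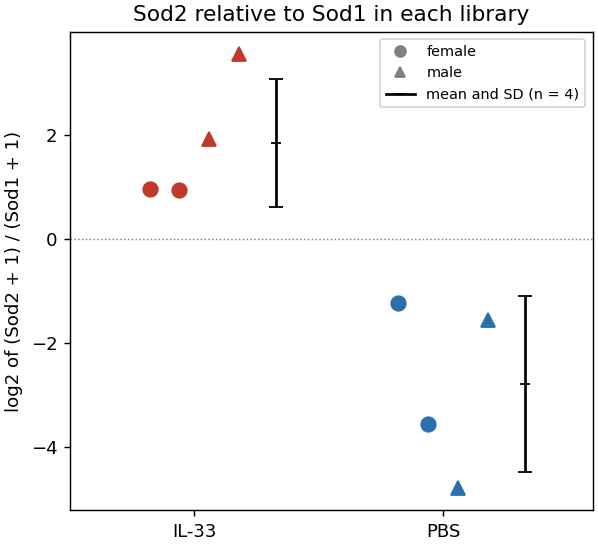
The log2 ratio of Sod2 to Sod1, each with 1 added, in the 4 IL-33 libraries (left) and the 4 PBS libraries (right), with mean and SD beside them. The IL-33 ratios lie between 0.93 and 3.55 and the PBS ratios between -4.80 and -1.23, so that the groups lie on opposite sides of the dotted line at 0.

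The 3 genes nearest to Sod2 in pattern, by the same measure, were Zc3h12a, Timm10 and Gm44154, at mean differences of 0.44, 0.55 and 0.59. Zc3h12a, which encodes an RNase that degrades inflammatory mRNAs, averaged 1898 after IL-33 and 319 after PBS. For Timm10, a chaperone of mitochondrial import, the averages were 1169 after IL-33 and 200.4 after PBS, and for the predicted gene Gm44154 they were 1347 and 105. Among the members themselves, Sod2 lay nearest to Txnrd1 (0.73), Acod1 to Cybb (0.94) and Nfe2l2 to Prdx1 (0.31).

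Other genes of superoxide, peroxide and quinone defence gave 0 calls among 12 tested by limma, by edgeR and by DESeq2, with 3 at an unadjusted p under 0.05 in limma (19.4% over all tested genes) and a median log2 fold change of -0.84. Of these 12 genes 2 were called lower after quantile normalization and 1 without IL-33 replicate 1. The metallothionein gene Mt1, the most abundant, averaged 8220.4 ± 1846 after IL-33 and 5960.3 ± 1655 after PBS (SD, n = 4 each; 0.49, adjusted p = 0.358). The aldehyde reductase gene Akr1a1 averaged 4359.7 ± 753 after IL-33 and 4252 ± 1333 after PBS (0.08, adjusted p = 0.910). Its difference was -0.12 after quantile normalization, so that no direction can be given.

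A window of 300 bases around the start of Sod2, from 250 bases before to 50 bases after, is shown because it held a match to the consensus of NF-κB, a factor downstream of the IL-33 receptor. The RefSeq start used here lies downstream of the GENCODE start of Sod2 (13006846). The sequence is from RefSeq (GRCm38.p6, plus strand, chr17:13007589-13007888), in lower case with the match in capitals.
Sod2: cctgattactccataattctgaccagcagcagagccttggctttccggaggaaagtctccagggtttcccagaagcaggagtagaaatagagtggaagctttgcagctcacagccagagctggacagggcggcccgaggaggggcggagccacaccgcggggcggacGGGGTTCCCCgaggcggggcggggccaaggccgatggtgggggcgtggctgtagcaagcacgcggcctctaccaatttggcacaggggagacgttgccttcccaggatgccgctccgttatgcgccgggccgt
The match began 83 bases before the start, and 4.51% of 32851 mouse promoter windows of this length held one on either strand. Windows were at hand for 8 of the 10 members (none for Nos2 or Hmox1), 10 windows in all since Txnrd1 had 3, and the NF-κB consensus occurred in those of Sod2 and Prdx1. The Acod1 window (chr14:103046762-103047061) held neither this consensus nor the other motifs searched.

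Nfe2l2 (chromosome 2, 75675513 to 75704641) rose by less than the genes above and with little spread. It was at 15436, 13121, 11632 and 10858 normalised counts after IL-33 and at 6346, 6118, 7342 and 7052 after PBS. Every IL-33 library lay above every PBS library. The means were 12762 ± 2015 after IL-33 and 6714 ± 577 after PBS (SD, n = 4 each), with a log2 fold change of 0.92 ± 0.22 SE (limma adjusted p = 0.0179). This call was close to the threshold. It was lost without IL-33 replicate 1 or 2 or PBS replicate 5 or 6 (adjusted p = 0.0514, 0.0526, 0.0551 and 0.0686) and after quantile normalization (0.65, adjusted p = 0.112) or without a variance trend (adjusted p = 0.362).

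Regulators and partners of NRF2 had a median log2 fold change of 0.47. Of 10 tested, 1 rose and 0 fell, against 3.06% higher and 2.8% lower over all tested genes. The 1 that rose was Nfe2l1, which encodes a related factor that also binds antioxidant response elements. It was at 3302, 2755, 2686 and 3973 after IL-33 and at 605, 1034, 621 and 708 after PBS (2.11 ± 0.43 SE, limma adjusted p = 0.00446). Without a variance trend Nfe2l1 was not called (adjusted p = 0.0646), and 1 gene of the list was called lower with sex as a covariate, by DESeq2 and without IL-33 replicate 2. Over all tested genes these settings called 362, 877 and 353 lower, in the same order. Keap1 averaged 1411 ± 862 after IL-33 and 852 ± 269 after PBS (adjusted p = 0.603). Bach1, whose product represses Hmox1, averaged 2763 ± 574 after IL-33 and 1366 ± 528 after PBS but missed the threshold (limma adjusted p = 0.158). Its groups did not overlap, with IL-33 higher, as was so for 6.26% of all tested genes. Keap1 and Bach1 were named after their values were seen.

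Among the 4 members chosen as target genes of NRF2, Txnrd1 alone passed the test. Other genes of glutathione, thioredoxin and haem metabolism are given further below and were not counted here. Txnrd1 (chromosome 10, 82833951 to 82897712), the cytosolic thioredoxin reductase, was at 5189, 3294, 2961 and 6165 normalised counts after IL-33 and at 716, 113, 549 and 724 after PBS. The groups were far apart, and PBS replicate 6 was the lowest library. Its means were 4402 ± 1531 after IL-33 and 525.5 ± 286 after PBS (SD, n = 4 each), and the log2 fold change was 3.31 ± 0.58 SE (limma adjusted p = 0.00120, and 0.0646 without a variance trend).

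Prdx1 (chromosome 4, 116685544 to 116700822), a peroxiredoxin that reduces hydrogen peroxide with electrons from thioredoxin, was at 4211, 2137, 3156 and 4097 after IL-33 and at 1879, 1476, 1457 and 1307 after PBS. The groups did not overlap, with IL-33 higher, as was so for 6.26% of all tested genes. The log2 fold change of 1.11 ± 0.38 SE missed the threshold (limma adjusted p = 0.0990, edgeR adjusted p = 0.0834), while DESeq2 called it (1.15, adjusted p = 0.0201).

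Hmox1 (chromosome 8, 75093621 to 75100589), the haem oxygenase that releases iron, carbon monoxide and biliverdin, varied widely within both groups. It was at 5577, 444, 433 and 4971 after IL-33 and at 644, 2409, 255 and 405 after PBS. IL-33 replicates 1 and 4, a female and a male, were more than 10 times as high as the other two, and PBS replicates 5 and 6 exceeded those lower IL-33 libraries. The highest library was 12.9 times the lowest after IL-33 and 9.46 times after PBS. The log2 fold change was 1.26 with a 95% interval of -0.52 to 3.05 (limma adjusted p = 0.438).

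Gclm (chromosome 3, 122245557 to 122270732), the modifier subunit of the enzyme that starts glutathione synthesis, was at 196, 255, 449 and 1230.2 after IL-33 and at 236, 119, 372 and 138 after PBS. IL-33 replicate 4 was high and the remaining IL-33 libraries lay within or just above the PBS range. The log2 fold change was 1.06 (95% interval -0.88 to 2.995, limma adjusted p = 0.564). The antisense transcript Gm17494 covers the 3′ end of Gclm, so that its counts are uncertain in the same way as those of Sod1, and Gm17494 averaged 37.0 ± 22.2 after IL-33 and 125 ± 211 after PBS (SD, n = 4 each).

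**Figure D4:**
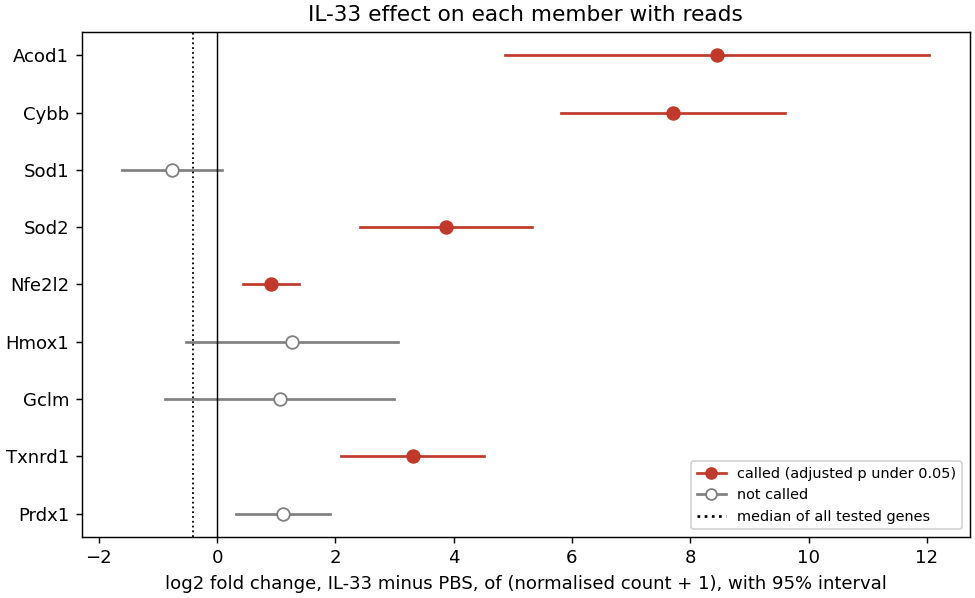
Log2 fold changes (IL-33 minus PBS, of the normalised count plus 1) with 95% intervals from limma for the 9 genes with reads. Filled red points were called and open grey ones were not, and the dotted line marks the median of all tested genes at -0.40. The intervals of Acod1, Cybb, Sod2, Nfe2l2, Txnrd1 and Prdx1 lie above 0 and those of Sod1, Hmox1 and Gclm include it.

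The 10 promoter windows of the 8 members were searched for the core of the antioxidant response element (TGACNNNGC), on either strand. A pattern for the AP-1 site (TGANTCA, with any middle letter) was searched in the same way. The core occurred in the windows of 5 of 8 members, Sod1, Nfe2l2, Gclm, Txnrd1 (1 of its 3 windows) and Prdx1. Counted by window and not by gene, 12.4% of all mouse windows of the same length held it. The AP-1 pattern matched in those of Cybb (TGAATCA) and Prdx1 (TGACTCA and TGAGTCA), against 7.81% of all windows. Both called genes (Nfe2l2 and Txnrd1) and genes that were not called (Sod1, Gclm and Prdx1) held the core. The windows below are shown to set a called gene with the core beside 2 that were not called, with all matches in capitals (RefSeq, GRCm38.p6, plus strand).
Txnrd1, second of 3 starts, chr10:82858956-82859255: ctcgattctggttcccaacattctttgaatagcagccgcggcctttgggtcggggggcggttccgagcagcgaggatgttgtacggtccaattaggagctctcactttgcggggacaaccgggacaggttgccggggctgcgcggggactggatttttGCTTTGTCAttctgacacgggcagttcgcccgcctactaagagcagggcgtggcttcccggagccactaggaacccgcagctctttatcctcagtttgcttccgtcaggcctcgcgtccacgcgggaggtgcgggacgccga
Gclm, chr3:122245307-122245606: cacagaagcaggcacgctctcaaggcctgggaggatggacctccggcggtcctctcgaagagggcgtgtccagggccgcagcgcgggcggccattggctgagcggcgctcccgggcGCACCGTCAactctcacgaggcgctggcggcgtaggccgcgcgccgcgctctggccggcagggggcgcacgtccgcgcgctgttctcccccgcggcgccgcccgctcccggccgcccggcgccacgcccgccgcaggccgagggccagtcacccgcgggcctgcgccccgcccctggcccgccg
Prdx1, chr4:116685349-116685648: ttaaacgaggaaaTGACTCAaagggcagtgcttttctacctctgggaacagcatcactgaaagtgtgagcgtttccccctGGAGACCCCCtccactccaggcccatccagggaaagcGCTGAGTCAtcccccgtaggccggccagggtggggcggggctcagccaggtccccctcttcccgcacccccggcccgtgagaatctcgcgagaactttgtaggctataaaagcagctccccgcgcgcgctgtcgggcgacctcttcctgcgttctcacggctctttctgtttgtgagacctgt
On the strand shown, the core of Txnrd1 reads GCTTTGTCA and begins 92 bases before the start. In Gclm it reads GCACCGTCA and begins 134 bases before. The Prdx1 core, GCTGAGTCA, begins 133 bases before the start and overlaps an AP-1 site, and a second AP-1 site and the NF-κB match lie further upstream. In Nfe2l2 the core TGACTCCGC begins 240 bases before the start (minus strand, chr2:75704614-75704913). A match describes these letters and is not evidence that a factor was bound.

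Of the other genes that serve these enzymes some were called and most were not. Among all 13877 tested genes 3.06% were called higher and 2.8% lower. Over all lists of related genes, the members themselves left out, 141 of 163 genes were tested. Of these 13 rose and 3 fell, with a median log2 fold change of 0.30. After quantile normalization 14 were called higher and 9 lower, against 480 and 542 of all 13877 tested genes. Without any 1 PBS library 12 to 13 were called higher and 0 lower, against 305 to 331 and 153 to 185 of all. Without IL-33 replicate 4 there were 14 higher and 6 lower, against 432 and 531 of 13943. In glutathione synthesis and use 1 of 22 rose and 1 fell (median 0.24). Slc7a11, the cystine importer that feeds glutathione synthesis, was at 859, 2189, 1422 and 2527 after IL-33 and at 5.08, 188, 23.0 and 0.733 after PBS (6.77 ± 1.38 SE, limma adjusted p = 0.00462). In edgeR its log2 fold change was 5.04. Without both IL-33 replicates 3 and 4 its call was lost (adjusted p = 0.0834). Gclc, the catalytic partner of Gclm, named after its values were seen, averaged 714 ± 342 after IL-33 and 620 ± 272 after PBS (adjusted p = 0.910).

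Ggt5, a γ-glutamyltransferase, was at 84.2, 1.69, 0.987 and 110 after IL-33 and at 627.5, 1019.9, 1335 and 267 after PBS (-5.53 ± 1.602 SE, limma adjusted p = 0.0473). It was just inside the threshold and was lost without IL-33 replicate 2 or 3 or any 1 of the 4 PBS libraries (adjusted p from 0.0680 to 0.191), and edgeR did not call it (-4.05, adjusted p = 0.0772).

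Of 17 thioredoxins, peroxiredoxins and related genes limma called 0, with 4 at an unadjusted p under 0.05 (19.4% over all tested genes). Of the same 17, edgeR called 1 (higher), against 5.46% of all tested genes. DESeq2 called 4 (2 higher and 2 lower), against 12% of all tested genes. The median log2 fold change of the 17 was 0.59. Prdx5, a peroxiredoxin of mitochondria and peroxisomes, was at 7502, 4466, 7984 and 1953 after IL-33 and at 2445, 1786, 2286 and 1770.4 after PBS (1.22 ± 0.41 SE, limma adjusted p = 0.0950, edgeR adjusted p = 0.0364). IL-33 replicate 4 lay within the PBS range, and without it limma called the gene (1.65, adjusted p = 0.00167). Txnip, whose product binds thioredoxin, ranged from 507 to 8817 after IL-33 and from 517 to 7929.7 after PBS (adjusted p = 0.727).

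Genes of NADPH supply moved both ways, with 2 of 13 higher, 2 lower and a median of 0.57. The shares over all tested genes were 3.06% higher and 2.8% lower. NADPH is the electron donor of the oxidase, of nitric oxide synthase and of glutathione and thioredoxin reductases. Mthfd2, a mitochondrial enzyme of folate metabolism, was at 3987, 3976, 2558 and 2284 after IL-33 and at 99.9, 711, 159 and 302 after PBS (3.67 ± 0.63 SE, limma adjusted p = 9.68e-04). Nadk, the kinase that makes NADP, was named after its values were seen and averaged 4249 ± 3352 after IL-33 and 394 ± 266 after PBS (SD, n = 4 each), with a log2 fold change of 3.47 ± 0.65 SE and a limma adjusted p of 0.00214 (0.0753 without a variance trend). Idh1 and Idh2, the NADP-dependent isocitrate dehydrogenases of the cytosol and of mitochondria, fell. Idh2 was at 356, 131, 294 and 6.69 after IL-33 and at 1129.6, 3059, 1856 and 1410.0 after PBS (-4.09 ± 1.02 SE, adjusted p = 0.0201). Idh1 was at 84.2, 5.92, 2.96 and 24.8 after IL-33 and at 538, 688, 372 and 680.5 after PBS (-5.14 ± 1.47 SE, adjusted p = 0.0446). No library of one group reached the other in either gene. Both falls were lost without any 1 of the 4 PBS libraries, at adjusted p from 0.128 to 0.157 for Idh1 and from 0.0545 to 0.112 for Idh2. The call of Idh1 was also lost without IL-33 replicate 2 or 3 (0.0626 and 0.0536), and edgeR did not make it (-4.26, adjusted p = 0.0793). For Idh2 edgeR gave a log2 fold change of -3.22, and limma without a variance trend did not call it (adjusted p = 0.156).

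In haem and iron handling 3 of 21 rose and 0 fell, with a median of 0.50, although Hmox1 itself was not called. Over all tested genes the shares were 3.06% higher and 2.8% lower. Slc11a2, a transporter of ferrous iron, was at 20680.0, 11449, 15441 and 28454 after IL-33 and at 541, 808, 1051 and 875 after PBS (4.49 ± 0.35 SE, limma adjusted p = 4.57e-08). Fth1, the heavy chain of the iron store ferritin, was at 56805, 57963, 60554 and 78103 after IL-33 and at 27457, 21842, 20337 and 28791 after PBS (1.37 ± 0.16 SE, adjusted p = 1.26e-05). Cp, the ferroxidase ceruloplasmin, was at 1272, 2071, 1902 and 2142 after IL-33 and at 0.847, 5.11, 187 and 6.59 after PBS (7.33 ± 1.39 SE, adjusted p = 0.00245). PBS replicate 7 held most of the Cp reads of its group, and the log2 fold change of Cp was 8.68 without that library and 5.21 when edgeR was fitted to the recovered reads. Without both IL-33 replicates 3 and 4 the call of Cp was lost (adjusted p = 0.0643), and those of Slc11a2 and Fth1 held. Without a variance trend Fth1 was not called (adjusted p = 0.187).

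**Figure D5:**
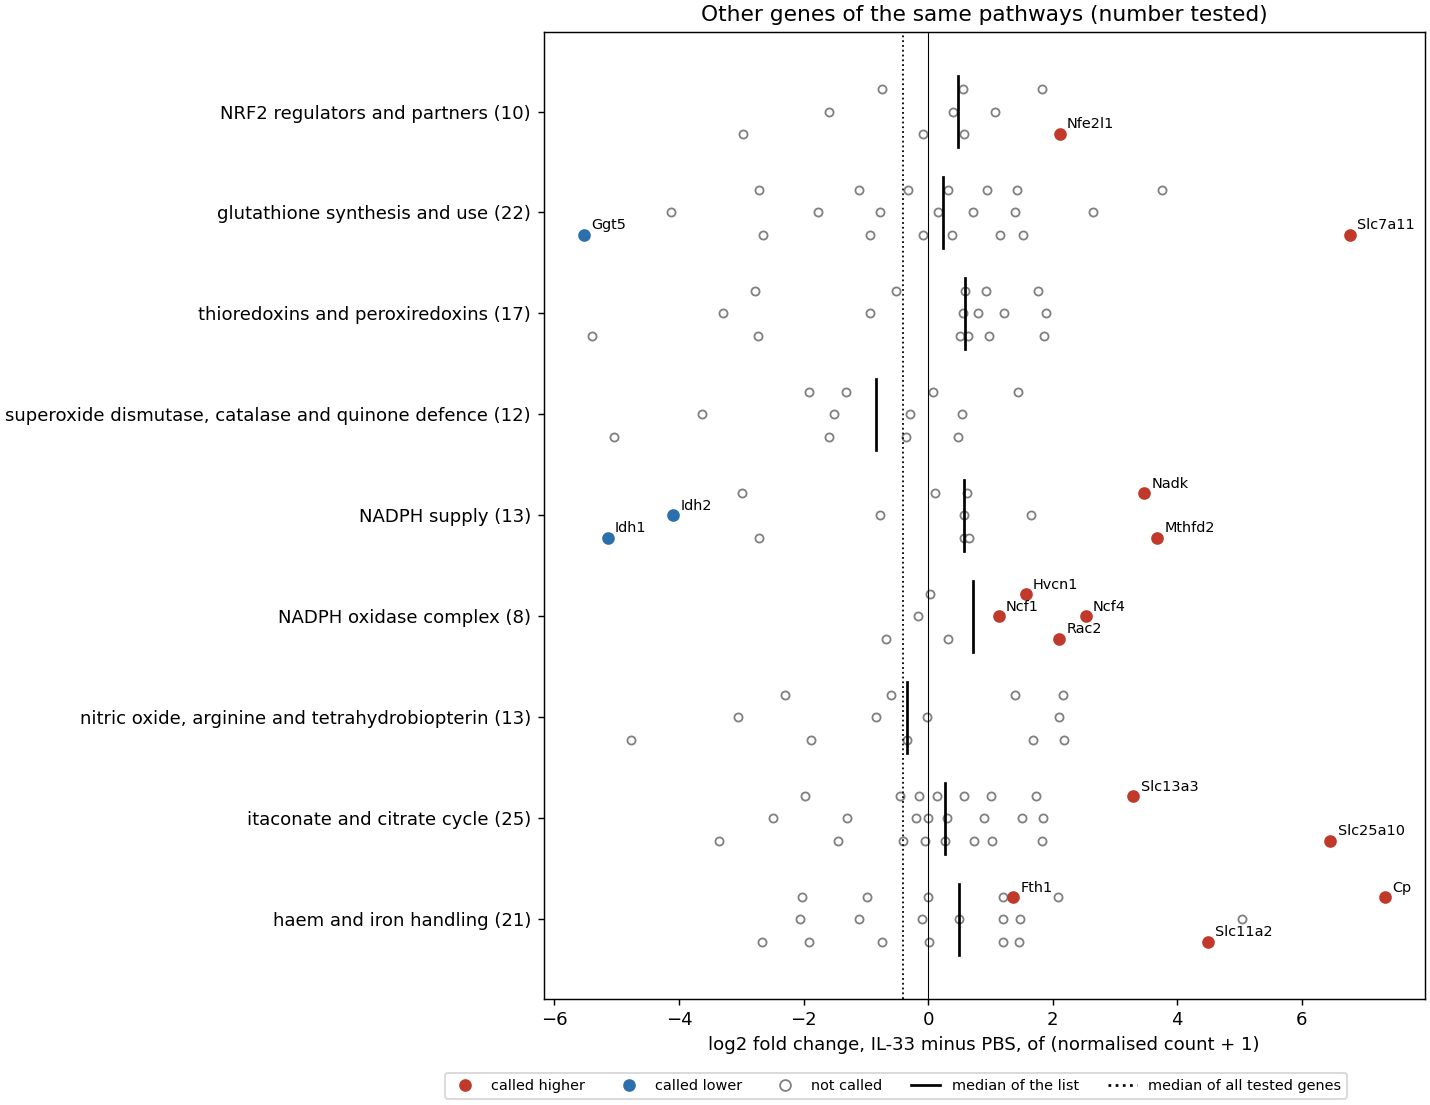
Log2 fold changes (IL-33 minus PBS, of the normalised count plus 1) of the other tested genes in 9 lists of related genes, with the number tested in parentheses. Red points were called higher, blue points lower and open points not called, black bars are list medians and the dotted line is the median of all tested genes at -0.40. The called genes spread over both ends of the scale, with Cp, Slc7a11 and Slc25a10 above 6 and Ggt5 and Idh1 below -5.

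The IL-33 effect was compared between females and males as the interaction of treatment and sex, with 2 libraries of each sex in a group. By limma 0 of the 9 tested members differed between the sexes after adjustment (smallest adjusted p = 0.783), none had an unadjusted p under 0.05, and 809 of the 13877 tested genes did. The lowest unadjusted p was that of Sod1 (0.0781). Its mean was 2532 after IL-33 and 2685 after PBS in females, and 1249.8 after IL-33 and 3369.8 after PBS in males. IL-33 replicates 3 and 4, both the male libraries, also had the fewest genes with at least 10 reads, and the part of this in the Sod1 values was not tested. Acod1 had a log2 fold change of 8.15 in females and 8.74 in males, and Cybb 8.37 and 7.05.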

How the data were processed

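Values are gene signals from Lexogen QuantSeq FWD libraries, which read 3′ ends, made from Ly-6C-negative cells that carried CD11b and little CD45, sorted by flow cytometry, per the labels' protocols. The authors deposited normalised counts: 100% of the non-zero signals in a library were integer multiples of what 1 read was worth (tolerance 0.01 read), which gave back the reads. DESeq2 1.24.0, HTSeq 0.9.0, STAR 2.5.4b and FastQC are listed without roles in the submitters' processing notes, with builds mm10 and GRCm38. Use of strand, multi-mapping and duplicates: not given in the sources used here. Without molecular identifiers reads are not independent molecules, and intervals and the limit of 3 counts cover counting error only.

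The main test was limma 3.58.1 (R 4.3.3) on log2(value + 1) with a variance trend and group as the sole term, two-sided, for genes with a mean of at least 10, with Benjamini-Hochberg adjustment. The added 1 understates changes of low genes. Sex was tested as an interaction. edgeR 4.0.16 (quasi-likelihood) and DESeq2 1.42.0 used the recovered reads. Other alternatives were pseudocounts of 0.5 and 5, no minimum mean or 50, TMM scaling, quantile normalization, no variance trend, library weights, sex as covariate, leaving out libraries, an adjusted p under 0.01 and an absolute log2 fold change over 1.

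Named genes were all members, up to 3 called genes of each list by size of change or 2 abundant ones where none was called, 2 abundant markers of each cell type, and the nearest 3 genes to Acod1 and Sod2. Exceptions are marked in the text, and a few genes covered by this choice were left out here. Members and lists were chosen with earlier results of these data known. Coordinates are from GENCODE release M21 (GRCm38) and promoters from RefSeq. Where a symbol stood on several rows the one with the highest mean was used.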

Additional observations from a re-analysis of the deposited data

Results flagged for a closer look

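In a group of 4 libraries 1 value can stand apart from the others by more than Dixon's 95% critical value, measured as its gap over the group's range, and chance gives about 1 such value in 20 groups. Among the 62 groups examined (members and named pathway genes, IL-33 and PBS) 5 did. Cybb was at 89.4 normalised counts in PBS replicate 8 (gap 0.922 of the range), Slc7a11 at 188 in PBS replicate 6 (0.881), Slc25a10 at 393.6 in PBS replicate 6 (0.954), Cp at 187 in PBS replicate 7 (0.969), and Slc13a3 at 3660.1 in IL-33 replicate 4 (0.914). The 4 PBS values were the highest of genes that were otherwise nearly silent after PBS, and they came from 3 different libraries. The calls of these 5 genes held in fits without the library named.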

How the results depend on the processing

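Of the 10 genes, 5 were called as reported, and 4 to 5 in each fit without 1 library. Without the pair IL-33 replicates 3 and 4, 4 were called. Without a variance trend 2 were called (Acod1 and Cybb), with Sod2 at adjusted p = 0.0985, Txnrd1 at 0.0646 and Nfe2l2 at 0.362. DESeq2 called 6. Of the related genes 16 were called (13 higher and 3 lower), against 7 without the trend (5 and 2), 26 by DESeq2 (20 and 6) and 10 at an adjusted p under 0.01 (10 and 0). Over all genes 812 were called, against 501 with no minimum mean, 413 without the trend, 1667 by DESeq2, 377 at an adjusted p under 0.01, and 458 to 963 without 1 library (516, 458, 505 and 486 without PBS replicates 5, 6, 7 and 8). The median log2 fold change of all genes, -0.40, was -0.12 with quantile normalization, -0.08 in edgeR and -0.40 with TMM scaling. Directions reversed, without a call, for Akr1a1 after quantile normalization (-0.12), without IL-33 replicate 3 (-0.01), without PBS replicate 8 (-0.14) and without the pair (-0.13), and without IL-33 replicate 1 for Txnip (0.22) and Qdpr (0.13). Without 1 library the ranges were -0.14 to 0.25 for Akr1a1, -1.40 to 0.22 for Txnip and -1.16 to 0.13 for Qdpr. The causes were not tested. The Sod2 to Sod1 difference ran from 3.96 to 5.15 without 1 library, and 0 genes differed by sex under the 8 alternatives tried for that test. No paired analysis was possible because the groups share no replicate numbers.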
